A study of Mus musculus with 6 samples.

Results

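The genes described here make fatty acids from citrate, lengthen them and introduce double bonds. They form a list of 33 genes of de novo lipogenesis, elongation and desaturation, measured in adipose tissue from mice of 32 weeks. In 3 samples the mother of the mouse had been on a chromium restriction diet and in 3 on a control diet, and each sample was hybridised to 1 array. The labels name no strain, sex, fat depot or duration of the diets, and they do not say whether the arrays came from separate animals or litters. P-values therefore measure only the spread between these samples, which may be technical. A gene was represented by the probe set that the platform annotation assigns to its symbol alone, and by the brightest where there were several. This gave values for 30 of the 33 genes, among 22180 genes measured in all. Scd2, Tkt and G6pdx had no probe set with a single symbol, and their levels are not analysed here.

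In de novo lipogenesis, citrate leaves the mitochondrion and is cleaved to acetyl-CoA, which is carboxylated to malonyl-CoA and condensed to palmitate with NADPH as the reductant. Palmitate is then lengthened by the elongase cycle of the endoplasmic reticulum and desaturated by stearoyl-CoA and fatty acid desaturases. The pathway is active in both liver and fat, where insulin acting through SREBP-1c and glucose acting through ChREBP are known to drive its genes. Values are the deposited values, taken to be on a log2 scale, and differences are chromium restriction minus control. Levels of single genes are compared only within a probe set, since probe sets differ in brightness.

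Promoter windows are shown for 4 genes whose windows lay outside their own annotated span: Elovl6, Thrsp and Acly, which were low on 2 of the chromium restriction arrays, and Fads2, which was high on them. Each line gives the 250 bases before the RefSeq start, 5′ to 3′ on the gene's strand, from assembly GRCm38.p6. Capitals mark a CCAAT box (CCAAT) or a GC box (GGGCGG) on either strand. The window is chr3:129532136-129532385 on the plus strand for Elovl6 and chr7:97417551-97417800 on the minus strand for Thrsp. It is chr11:100528001-100528250 on the minus strand for Acly and chr19:10101504-10101753 on the minus strand for Fads2.
Elovl6: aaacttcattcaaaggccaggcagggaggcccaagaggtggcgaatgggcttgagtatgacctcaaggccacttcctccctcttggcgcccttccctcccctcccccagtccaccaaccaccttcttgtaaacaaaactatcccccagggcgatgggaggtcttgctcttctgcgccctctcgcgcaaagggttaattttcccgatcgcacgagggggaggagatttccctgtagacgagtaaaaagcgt
Thrsp: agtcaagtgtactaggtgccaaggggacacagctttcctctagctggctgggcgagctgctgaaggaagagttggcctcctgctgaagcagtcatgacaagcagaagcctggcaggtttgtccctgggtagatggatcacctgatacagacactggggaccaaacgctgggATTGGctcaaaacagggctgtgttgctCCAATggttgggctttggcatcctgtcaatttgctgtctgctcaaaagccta
Acly: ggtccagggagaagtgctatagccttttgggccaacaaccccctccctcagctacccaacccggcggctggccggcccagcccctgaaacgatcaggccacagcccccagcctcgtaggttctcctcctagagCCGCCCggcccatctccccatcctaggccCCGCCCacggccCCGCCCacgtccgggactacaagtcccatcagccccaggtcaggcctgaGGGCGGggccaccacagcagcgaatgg
Fads2: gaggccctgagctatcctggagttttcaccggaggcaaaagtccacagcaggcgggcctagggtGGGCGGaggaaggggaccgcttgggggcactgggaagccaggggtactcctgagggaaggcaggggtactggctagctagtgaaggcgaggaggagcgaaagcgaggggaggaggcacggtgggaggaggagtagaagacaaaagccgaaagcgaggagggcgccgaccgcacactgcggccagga
The table of promoters held 36 windows for 30 of the 33 genes and 32851 windows in all. These are not the same 30 genes as those measured. Tkt and G6pdx had windows, and Scd1 and Fads1 had none. A CCAAT box lay in 18 of the 36 windows (50%) and in 33.8% of all windows, and a GC box in 23 (63.9%) and 32.7%. The E-box CACGTG lay in 4 of the 36 windows, those of Elovl5, Hacd3, Mlxipl and Slc25a1 (11.1%, against 6.02% of all windows). The letters TCACNCCAC, which resemble a sterol response element, lay in 1 window of Mlxipl (2.78%, against 1.05%). These 4 motifs were searched on both strands, and no motif contains another, though neighbouring matches can overlap. A match describes the letters of a window and is not a shown binding site. The Thrsp window held 2 CCAAT boxes, the Acly window 4 GC boxes and the Fads2 window 1 GC box, and no match to the 4 motifs was found in the Elovl6 window.

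Array medians ran from 5.44 to 5.57 (log2) and correlations between arrays, across probe sets, from 0.953 to 0.987. The defining white adipocyte genes were present on every array, with Fabp4 at 13.53 to 13.72 and Cidec at 12.77 to 13.09. Alb, the gene of the liver protein albumin, had log2 levels of 9.37 to 9.98 in the controls, of 13.72 and 13.55 in chromium restriction replicates 1 and 3 and of 9.17 in replicate 2. Replicates 1 and 3 are called the liver-rich arrays, and results are given with and without them. The mean level of 7 liver genes was 11.33, 6.55 and 10.90 in replicates 1, 2 and 3 and 6.56 to 6.94 in the controls. All 7 were above every control on both liver-rich arrays. In replicate 2, 1 of the 7 was above every control and 5 were below every control. Over 8 intestinal epithelium genes the mean level was 6.34, 6.68 and 6.29, against 5.22 to 5.28 in the controls, with 7, 7 and 4 of the 8 above every control in replicates 1, 2 and 3. Fabp1, singled out after its values were seen and also abundant in liver, was at 11.50, 5.83 and 11.16, against at most 6.01 in the controls. Without it the mean of the other 7 was 5.60, 6.80 and 5.60, against 5.18 to 5.29. Within that list Fabp2, a fatty acid binding protein, was at 7.15 to 7.31 on the 3 chromium restriction arrays, above every control, and Sis, a brush border enzyme, was at 7.09 in replicate 2 and at 4.53 to 4.62 on the other arrays. Over 7 brown adipocyte genes the mean level was 5.60, 5.46 and 5.68, against 7.95, 5.68 and 6.46 in controls 1, 2 and 3, with 5, 6 and 4 of the 7 below every control. Over 7 macrophage genes it was 9.12, 8.59 and 8.50, against 8.13 to 8.62, with 7, 2 and 1 of the 7 above every control. Over 8 mammary epithelial genes it was 5.44, 5.35 and 5.35, against 5.07 to 5.28. Those above every control numbered 4, 2 and 3 in replicates 1, 2 and 3, and those below 2, 4 and 2. By group mean 5 of these genes were higher and 3 lower, and Krt14, Csn2, Csn3 and Lalba lay below the array median on all 6 arrays. In bulk tissue, fewer cells of a type and less RNA per cell cannot be told apart.

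Of the 30 genes 23 had a lower mean in the chromium restriction group (76.7%, against 56.8% of all genes), and the median log2 difference was -0.33, against -0.018 over all genes. Comparisons with all genes, here and below, were not matched for brightness. The mean value per array was 8.87 to 9.60 over the 30 genes and 6.28 to 6.30 over all genes. In limma's test over all genes 1 of the 30 passed an adjusted p of 0.05, Srebf1, which was listed higher. The share of all genes called was 0.194%. Of the 6 values of Srebf1, 4 carried more digits than the rest of the table, as described below. Without the rows that hold such values 0 of 29 of these genes passed, and 0 genes in all. Not every call lost lay in such a row. Fabp2, without extra digits, had an adjusted p of 0.00358 in limma over all genes and did not pass once those rows were left out. An adjusted p depends on the other genes tested. At an unadjusted p of 0.05 in limma 6 genes were lower (3.53% of all genes were) and 2 higher (2.42% of all genes). All 3 chromium restriction arrays lay below all controls for Acacb, Aacs, Taldo1 and Hacd2 (4 of 30, against 6.06% of all genes). They lay above all controls for Srebf1 (1 of 30, against 3.53%).

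The 3 chromium restriction arrays differed from each other over these genes. On replicate 1, 17 of the 30 genes lay below every control (32.3% of all genes did) and 7 above (26.8%). On replicate 3, 19 lay below (29.1%) and 5 above (20.3%). On replicate 2, 7 lay below (25.9%) and 4 above (18.8%), shares near those of all genes. On both liver-rich arrays together 16 of the 30 lay below every control, against 15% of all genes, and 12 of these 16 did not do so on replicate 2. Elovl5, Fads1, Fads2 and Srebf1 lay above every control on both liver-rich arrays (4 of 30, against 10.1%). The median difference from the control mean over the 30 genes was -0.42 in replicate 1, 0.063 in replicate 2 and -0.51 in replicate 3, and -0.097 to 0.10 among the controls. The SD within the chromium restriction group exceeded that within the controls for 22 of the 30 genes (73.3%, against 53.7% of all genes).

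**Figure D1:**
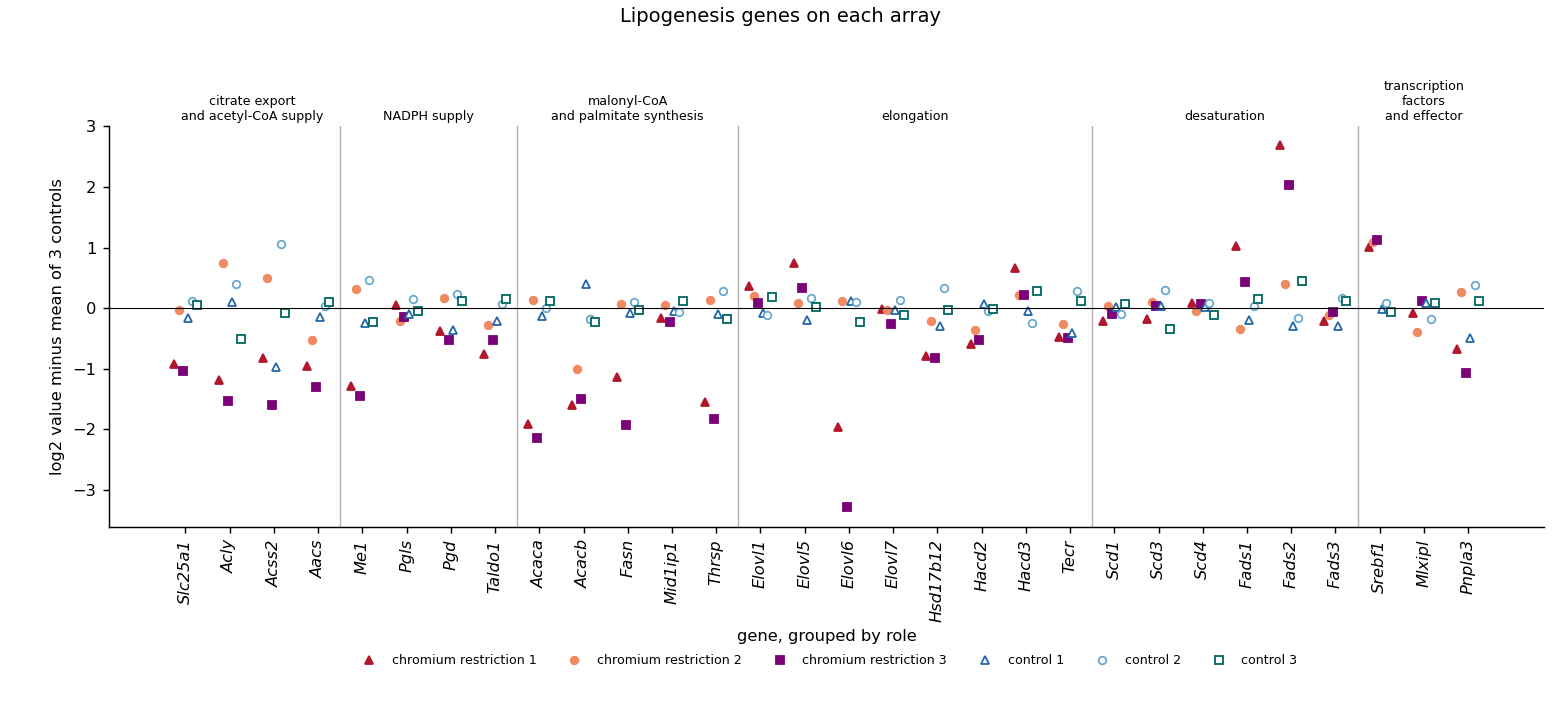
Log2 value of each of the 30 genes minus the mean of the 3 controls (vertical axis), with genes grouped by role (horizontal axis), filled symbols for the 3 chromium restriction arrays and open symbols for the 3 controls. Replicates 1 and 3 lie below the controls for Acaca, Fasn, Thrsp and Elovl6 and above them for Fads2, while replicate 2 lies 0.11 to 0.14 above the control mean for Acaca, Thrsp and Elovl6.

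Acetyl-CoA carboxylase and fatty acid synthase carry out the committed steps, and all 5 measured genes of this group had a lower mean, with a median log2 difference of -1.08. Acacb, the carboxylase of the mitochondrial surface whose malonyl-CoA also restrains fatty acid import, was at a log2 level of 6.53, 7.12 and 6.63 in chromium restriction replicates 1, 2 and 3 and at 8.52, 7.94 and 7.90 in controls 1, 2 and 3. All 3 chromium restriction arrays were below every control, replicate 2 included. The means were 6.76 ± 0.32 and 8.12 ± 0.35 (SD, n = 3 each), a 2.57-fold lower level. The log2 difference was -1.36 ± 0.23 (SE), with an adjusted p of 0.260 in limma. Control 1, which held the highest Acacb, was also the array highest in brown adipocyte genes, and their part in the difference was not tested. Without control 1 the difference was -1.16 ± 0.20 (SE, adjusted p = 0.561).

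Acaca, the cytosolic carboxylase that supplies malonyl-CoA for synthesis, was at 9.65, 11.69 and 9.41 in replicates 1, 2 and 3 and at 11.43, 11.56 and 11.67 in the controls (log2 levels). Replicates 1 and 3 were far below the controls and replicate 2 was above them all. The mean difference of -1.31 ± 0.59 (SE, n = 3 each) had an adjusted p of 0.817 in limma. Fasn, which encodes fatty acid synthase, was at 11.90, 13.11 and 11.10 against 12.95, 13.15 and 13.01. Its replicate 2 lay inside the narrow range of the controls, and the difference of -1.00 ± 0.47 (SE) had an adjusted p of 0.825. Thrsp, a thyroid hormone responsive protein that promotes lipogenesis, was at 10.08, 11.77 and 9.81 against 11.53, 11.91 and 11.45. Here too replicate 2 lay within the controls, and the difference was -1.08 ± 0.50 (SE, adjusted p = 0.818). Mid1ip1, a paralogue of Thrsp that acts on acetyl-CoA carboxylase, differed by -0.11 ± 0.10 (SE), and its dimmer probe sets by 0.19 and 0.13, so the probe sets disagreed in sign.

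**Figure D2:**
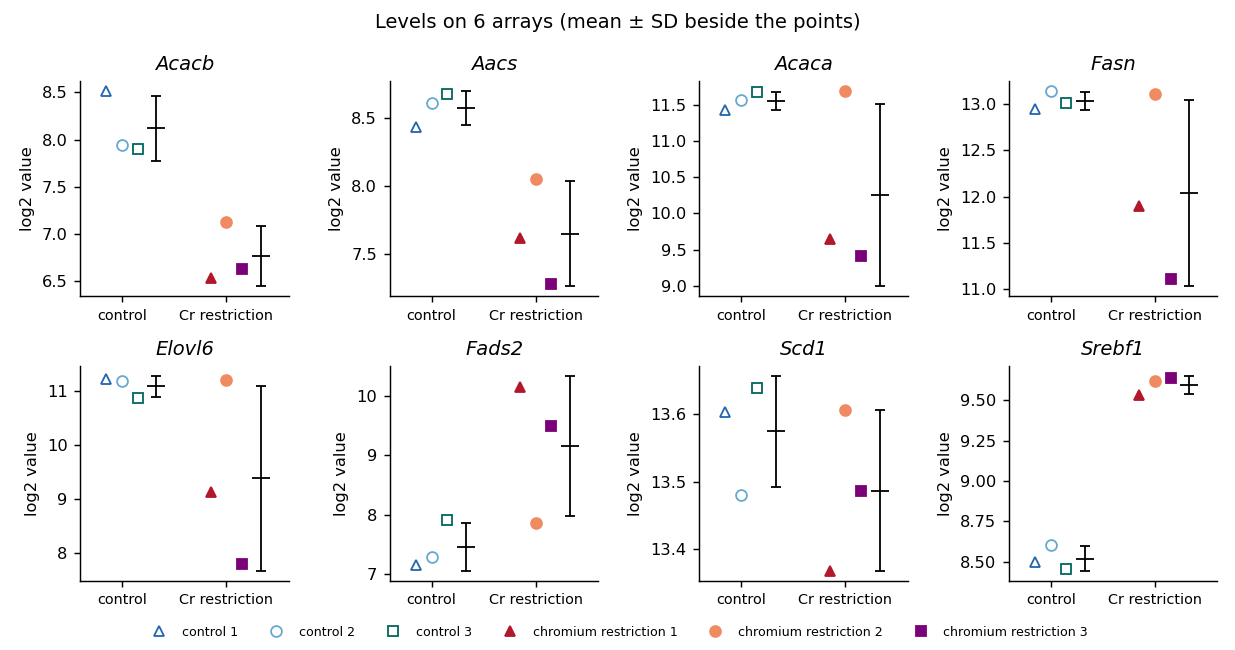
Log2 level of 8 genes on each array (vertical axis, with a range of its own in every panel that does not start at 0) in the 3 controls (open symbols) and the 3 chromium restriction arrays (filled symbols), with mean ± SD beside them. Acacb and Aacs separate the groups, Acaca, Fasn, Elovl6 and Fads2 separate replicates 1 and 3 from the other arrays, Scd1 spans 13.37 to 13.64, and Srebf1 is the gene whose values carry extra digits.

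The 4 genes that bring acetyl-CoA to the cytosol all had a lower mean, with a median log2 difference of -0.66. Aacs, acetoacetyl-CoA synthetase, which activates a ketone body for lipid synthesis, was at 7.62, 8.06 and 7.28 in replicates 1, 2 and 3 and at 8.44, 8.61 and 8.68 in the controls (log2 levels). No chromium restriction array reached the lowest control. The difference was -0.92 ± 0.20 (SE, n = 3 each), a 1.90-fold lower level, with an adjusted p of 0.547 in limma. Slc25a1, the mitochondrial citrate carrier, was at 10.32, 11.22 and 10.20 against 11.08, 11.36 and 11.30, with replicate 2 within the controls and a difference of -0.66 ± 0.27 (SE).

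Acly, ATP citrate lyase, was at 9.64, 11.56 and 9.29 in replicates 1, 2 and 3 and at 10.92, 11.23 and 10.32 in the controls (log2 levels). Replicate 2 was the highest of all 6 arrays and the liver-rich arrays were the lowest. Its difference of -0.66 ± 0.61 (SE) was close to its error. Acss2, which makes acetyl-CoA from acetate, was at 9.13, 10.45 and 8.35 against 8.98, 11.00 and 9.86. The controls themselves spanned 2.02 log2 units, with the lowest in control 1. The difference of -0.64 ± 0.68 (SE, adjusted p = 0.976) was within that spread.

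Of the 6 listed genes that supply NADPH 4 were measured, and all 4 had a lower mean. Taldo1, transaldolase of the pentose phosphate pathway, was at 8.97, 9.45 and 9.19 in replicates 1, 2 and 3 and at 9.51, 9.79 and 9.87 in the controls (log2 levels). The groups did not overlap, with replicate 2 just below the lowest control. The difference was -0.52 ± 0.15 (SE, n = 3 each, adjusted p = 0.751 in limma). Me1, cytosolic malic enzyme, was at 11.31, 12.91 and 11.14 against 12.35, 13.05 and 12.36. The liver-rich arrays were more than 1 log2 unit below every control and replicate 2 was among the controls, for a difference of -0.80 ± 0.49 (SE, adjusted p = 0.903). Pgd and Pgls, both of the oxidative branch of the pentose phosphate pathway, differed by -0.24 ± 0.23 and -0.10 ± 0.11 (SE), and the second probe set of Pgls by -0.090.

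Elongation genes were mixed, with 5 of 8 lower and 3 higher. Elovl6, the elongase that lengthens palmitate to stearate, was at 9.13, 11.20 and 7.80 in replicates 1, 2 and 3 against 11.21, 11.18 and 10.86 in the controls (log2 levels). Its chromium restriction arrays spanned 3.40 log2 units, the widest range in that group among the 30 genes, and replicate 2 lay between the controls. The difference over all arrays was -1.71 ± 0.80 (SE, n = 3 each, adjusted p = 0.818 in limma). Hacd2, a dehydratase of the elongation cycle, was at 11.03, 11.27 and 11.09 against 11.69, 11.57 and 11.60. The groups did not overlap and the spread within each was small, with a difference of -0.49 ± 0.088 (SE, 1.41-fold lower) and an adjusted p of 0.341.

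Hsd17b12, the ketoacyl reductase of the cycle, differed by -0.61 ± 0.22 and Tecr, the enoyl reductase, by -0.41 ± 0.18 (SE), and replicate 2 lay within the controls for both. Elovl5, an elongase of polyunsaturated fatty acids, differed by 0.39 ± 0.19, Hacd3, another dehydratase, by 0.37 ± 0.18 and Elovl1, an elongase of very long chains, by 0.22 ± 0.12 (SE). The adjusted p was 0.817 to 0.855 for these 5 genes in limma. Elovl7, a further elongase, lay below the array median on all 6 arrays, as did Scd4, and their levels may not be above background, which the sources used here do not give.

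The desaturases had no common direction, with 3 of 6 lower. Scd1, stearoyl-CoA desaturase, which makes oleate and palmitoleate, was at 13.37, 13.61 and 13.49 in replicates 1, 2 and 3 and at 13.60, 13.48 and 13.64 in the controls (log2 levels). The groups overlapped, and the 95% interval of the difference ran from -0.31 to 0.13. Scd3 and Scd4, close paralogues of Scd1, differed by -0.016 ± 0.17 and 0.038 ± 0.083 (SE), and hybridisation across these genes was not tested. Fads3, a desaturase gene of the same cluster as Fads1 and Fads2, was at 11.59, 11.69 and 11.75 against 11.52, 11.97 and 11.93, and differed by -0.13 ± 0.13 (SE).

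Fads2, the desaturase that begins the conversion of linoleate and alpha-linolenate, was at 10.15, 7.85 and 9.49 in replicates 1, 2 and 3 and at 7.15, 7.29 and 7.91 in the controls (log2 levels). The liver-rich arrays were more than 1 log2 unit above every control and replicate 2 was below the highest control. The difference was 1.71 ± 0.58 (SE, n = 3 each), with an adjusted p of 0.791 in limma. Fads1, which acts later in the same route, was at 9.96, 8.60 and 9.36 against 8.75, 8.97 and 9.09. Its liver-rich arrays were above every control and replicate 2 below every control, and the difference of 0.37 ± 0.33 (SE) was near its error. Both genes, like the 7 liver genes in the mean, were highest in replicate 1 and next in replicate 3, and the part of liver transcripts in their levels was not tested.

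Srebf1, which encodes the sterol regulatory element binding proteins SREBP-1a and SREBP-1c, was listed at 9.53, 9.62 and 9.64 in replicates 1, 2 and 3 and at 8.50, 8.60 and 8.45 in the controls (log2 levels). The listed groups did not overlap, and replicate 2 lay between the liver-rich arrays. In this probe set 4 of the 6 values, those of all 3 chromium restriction arrays and of control 3, carried more digits than the rest of the table. Over all probe sets 183 of 202758 values did so, in 64 of them, and the sources used here do not give what was done to them before deposit. As listed, the difference was 1.08 ± 0.075 (SE, n = 3 each), a 2.11-fold higher level, with an adjusted p of 0.00470 in limma. Without the rows with extra digits no value of Srebf1 was left, and 0 of 29 genes passed in limma, with 7 at an unadjusted p under 0.05. The adjusted p of Srebf1 was 0.0544 without chromium restriction replicate 3 and 0.0514 without control 1.

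Mlxipl, which encodes the glucose-responsive factor ChREBP, was at 7.97, 7.66 and 8.16 against 8.14, 7.87 and 8.13, with overlapping groups and a difference of -0.11 ± 0.15 (SE). Pnpla3, a lipid droplet protein known as a target of both factors, was at 9.26, 10.19 and 8.87 in replicates 1, 2 and 3 and at 9.43, 10.31 and 10.05 in the controls (log2 levels). Its liver-rich arrays lay below every control and replicate 2 within them, with a difference of -0.49 ± 0.38 (SE, adjusted p = 0.943 in limma).

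How many of the 30 genes passed depended on replicate 2. Without it, 10 passed an adjusted p of 0.05 in limma, where 439 of all 22180 genes did (1.98%). Among genes of synthesis and its supply, Acaca (-2.03 ± 0.12), Thrsp (-1.68 ± 0.17), Fasn (-1.54 ± 0.23), Acacb (-1.54 ± 0.20), Aacs (-1.12 ± 0.14) and Slc25a1 (-0.99 ± 0.12) fell in that setting (log2 difference ± SE, 2 arrays against 3). Elovl6 (-2.62 ± 0.38) and Hacd2 (-0.56 ± 0.087) fell too, and Fads2 (2.37 ± 0.29) and Srebf1, as listed, rose. Both remaining chromium restriction arrays were liver-rich, so liver transcripts and maternal diet cannot be told apart there.

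Without the liver-rich arrays, 1 array against 3, 13 of 30 genes were lower, the median log2 difference was 0.063, and 0 passed in limma, with 4 at an unadjusted p under 0.05 (4.18% of all genes were). Acacb then differed by -1.00 ± 0.28, Aacs by -0.52 ± 0.14 and Hacd2 by -0.35 ± 0.12 (SE, the lone array assumed to vary like the controls). With the mean of the 7 liver genes as a covariate these 3 differences were -1.00, -0.57 and -0.36, and that of Taldo1 was -0.29 ± 0.18. In the same fit Acaca was at 0.014 ± 0.22, Fasn at -0.039 ± 0.33 and Fads2 at 0.43 ± 0.28 (log2 difference ± SE). The first of these settings rests on replicate 2 alone in its group, the array on which Sis was at 7.09. The covariate fit rests largely on replicate 2 too. Its mean of the 7 liver genes was 6.55, near the 6.56 to 6.94 of the controls, against 11.33 and 10.90 on the liver-rich arrays. Like values in these 2 settings are therefore not separate checks.

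**Figure D3:**
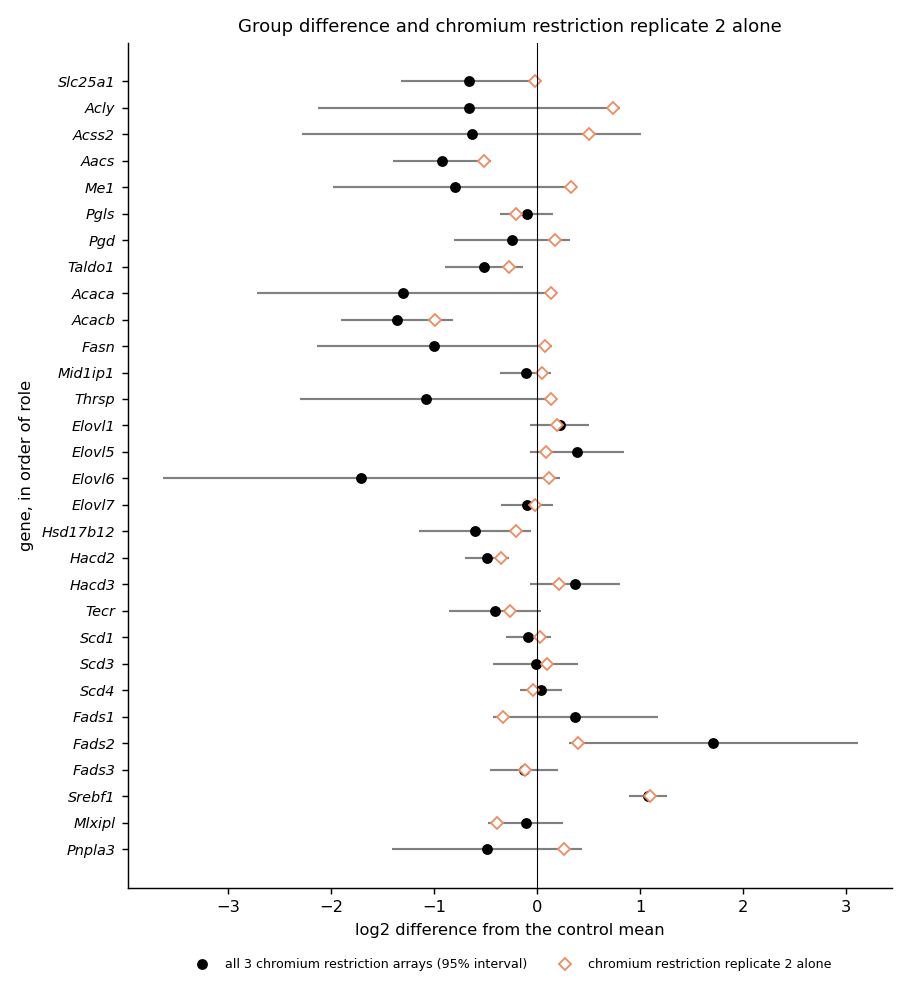
Log2 difference from the control mean (horizontal axis) for the 30 genes in order of role (vertical axis), as limma's estimate over all 3 chromium restriction arrays with its 95% interval (filled circles and bars) and for replicate 2 alone (open diamonds). The interval, not adjusted for the number of genes, lies below 0 for Acacb, Aacs, Hacd2, Taldo1, Hsd17b12 and Slc25a1. It lies above 0 for Fads2 and, as listed with extra digits, for Srebf1. Replicate 2 alone is at -1.00 for Acacb and at -0.022 for Slc25a1.

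Most genes that bring glucose carbon to citrate also had lower means. Of 19 such genes 17 were measured, 15 lower (56.8% of all genes were) and 2 higher, with a median log2 difference of -0.61, and 0 passed over all genes in limma. At an unadjusted p of 0.05 in limma 11 were lower and 1 higher, against 3.53% and 2.42% of all genes. The groups did not overlap for 7 lower genes and 1 higher gene, against 6.06% and 3.53%. Pfkm and Pfkl, phosphofructokinase subunits of glycolysis, differed by -0.48 ± 0.11 and -0.62 ± 0.14, and Hk2, hexokinase of insulin-responsive tissues, by -0.88 ± 0.24 (SE, n = 3 each, adjusted p = 0.547 to 0.679). Replicate 2 was below every control for all 3 of them, at -0.33 to -0.54 from the control mean. The median of the list lay -0.81, -0.14 and -0.70 from the control mean in replicates 1, 2 and 3. Pklr, the liver and red cell pyruvate kinase, was one of the 2 higher genes, at 8.20, 6.07 and 7.49 against 5.46 to 5.81 in the controls.

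Regulators of SREBP-1, ChREBP and acetyl-CoA carboxylase had a median log2 difference of -0.095. Of 25 listed genes 24 were measured, 18 lower (56.8% of all genes were) and 6 higher, and 0 passed over all genes in limma. At an unadjusted p of 0.05 1 was lower and 1 higher, near the 3.53% and 2.42% of all genes. Nr1h3, the liver X receptor alpha that induces Srebf1, was at 7.50, 7.67 and 7.43 in replicates 1, 2 and 3 and at 7.80, 7.90 and 8.14 in the controls, a difference of -0.41 ± 0.11 (SE, adjusted p = 0.708 in limma). Srebf2, the paralogue that governs cholesterol synthesis, was at 7.69, 7.87 and 7.61 against 7.39, 7.37 and 7.58, a difference of 0.28 ± 0.10 (SE, adjusted p = 0.817). The groups did not overlap for either gene. Prkag1, a regulatory subunit of AMPK, the kinase that inactivates acetyl-CoA carboxylase, differed by -0.21 ± 0.10 (SE).

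Of 14 other elongation, desaturation and mitochondrial synthesis genes 13 were measured, 9 lower (56.8% of all genes were) and 4 higher, with 0 past the test in limma. At an unadjusted p of 0.05 1 was lower, against 3.53% of all genes. Elovl2, an elongase of polyunsaturated fatty acids that is abundant in liver, was at 9.39, 5.20 and 8.49 in replicates 1, 2 and 3 and at 5.34 to 5.66 in the controls (log2 levels). As for Fads2, its liver-rich arrays stood above the other 4. Cbr4, a reductase of mitochondrial fatty acid synthesis, differed by -0.45 ± 0.17, and Elovl4, an elongase of very long chains, by -0.20 ± 0.099 (SE).

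All 10 white adipocyte markers had a lower mean, with a median log2 difference of -0.25. The list median lay -0.44, -0.14 and -0.16 from the control mean in replicates 1, 2 and 3. Of the 10, Adipoq passed, listed with extra digits like Srebf1 (log2 difference of -1.22, adjusted p = 0.00495 in limma). On the liver-rich arrays the 10 lay -1.22 to 0.098 from the control mean. The insulin-responsive glucose transporter gene Slc2a4 lay -1.20 and -1.01 from it on replicates 1 and 3 and -0.14 on replicate 2. Plin1, the coat protein of the adipocyte lipid droplet, lay -0.83 and -0.40 from it on replicates 1 and 3, Pck1 -0.67 and -0.36, and Pnpla2, a triglyceride lipase, -0.57 and -0.21. Fabp4, Lpl, Cidec, Lep and Lipe lay -0.31 to 0.098 from it on these arrays.

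**Figure D4:**
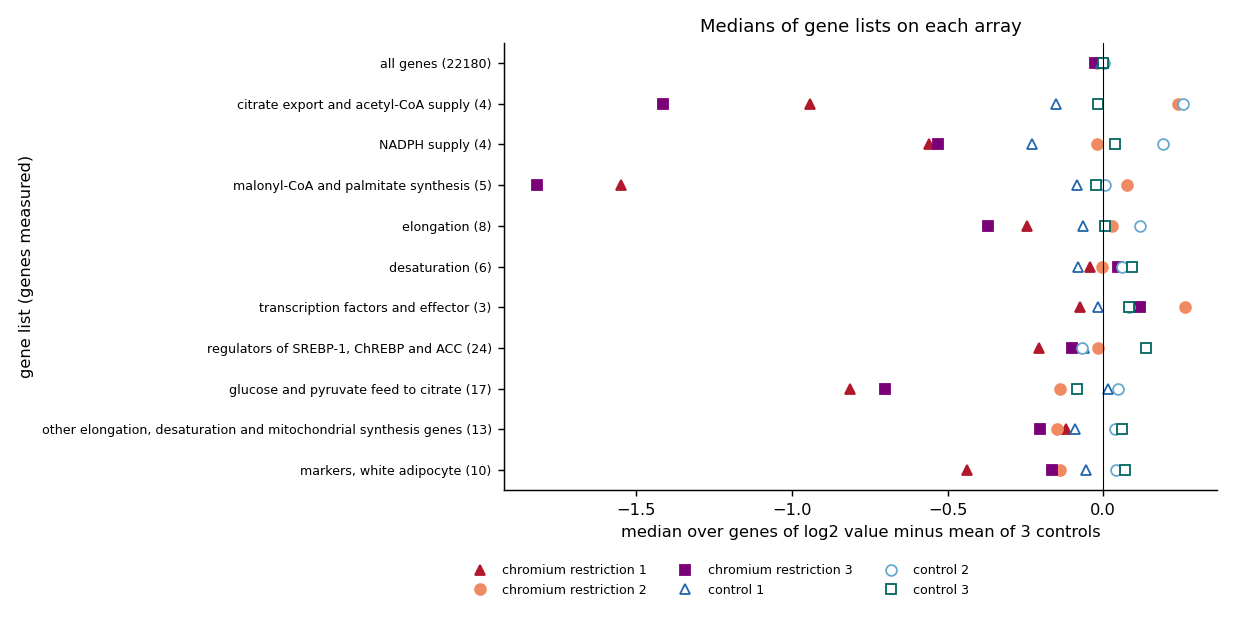
Median over the genes of each list of the log2 value minus the mean of the 3 controls (horizontal axis), per array, for all genes, the roles within lipogenesis, related lists and white adipocyte markers (vertical axis, with the number measured). Replicates 1 and 3 lie at -1.55 and -1.82 for malonyl-CoA and palmitate synthesis and at -0.81 and -0.70 for the genes that feed citrate, while replicate 2 lies at 0.075 and -0.14.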

How the data were processed

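The deposited table of the whole series held 33793 probe sets on 6 arrays. The authors' values were taken as log2 from their range of 3.49 to 14.86, and no source used here gives the log base, the summarisation or the normalization. No further normalization was applied. Per the labels, total RNA was labelled with biotin. In the platform annotation 23521 probe sets had 1 symbol, 1814 had several and 8458 had none. This left 22180 genes, and 21994 of them matched the RefSeq table of GRCm38.p6 by Entrez identifier, with 0 symbols differing. No filter on dim probe sets was used. The group difference came from limma 3.58.1 (lmFit, then eBayes) under R 4.3.3, two-sided, over all 6 arrays, and adjusted by Benjamini-Hochberg over all 22180 genes. The fit was tested on simulated data with equal spread in both groups and no liver-rich arrays or extra digits. That test therefore does not bear on these features. Values with extra digits are those not written as the shortest form of a single-precision number. The number of arrays limits the precision. The genes and lists were chosen with earlier results of these data known. Values on every array are given for genes in rows with extra digits, genes whose groups did not overlap, the 8 largest differences, the 4 highest means, and genes differing by over 1 log2 unit between the liver-rich arrays and replicate 2. Up to 3 genes of each related list are named, by smallest p. A few other genes were named after their values were seen, for contrast. The alternatives changed the scaling (quantile, median), the moderation (trend and robust, array weights), the unit (probe sets averaged per gene, or each tested), the arrays (each left out in turn, or both liver-rich ones) and the model (a liver covariate, or a block by replicate number). Others left out dim genes, or rows or values with extra digits.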

Additional observations from a re-analysis of the deposited data

How the results depend on the processing

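Over 17 alternative settings, 256 of 287 recomputed differences of the 17 genes described in full kept their direction and their side of an adjusted p of 0.05 in limma, and 18 reversed. This count is not a measure of robustness. The dim filter, trend and robust moderation, averaged probe sets, the replicate block and the removal of extra digits could not change these differences. Except for Srebf1, each gene started above the threshold, so keeping its side meant staying uncalled. All 18 reversals arose without both liver-rich arrays or with the liver covariate, and the cause was not tested. Both of these settings lean on replicate 2. Without both of them Acaca was at 0.14, Acly at 0.74, Acss2 at 0.50, Elovl6 at 0.11, Fads1 at -0.34, Fasn at 0.075, Me1 at 0.33, Pnpla3 at 0.26, Scd1 at 0.031 and Thrsp at 0.13, and the median over the 30 genes at 0.063 (log2 differences). With the liver covariate Acaca was at 0.014, Acly at 0.65, Acss2 at 0.36, Fads1 at -0.32, Me1 at 0.24, Pnpla3 at 0.17, Scd1 at 0.026 and Thrsp at 0.041, and the median at -0.0064. The number of lower genes among the 30 was 15 with the covariate and 13 without the liver-rich arrays, against 23. Leaving out 1 array at a time put the number of the 30 genes past the threshold at 0 to 10, with 10 without chromium restriction replicate 2, and the number of all genes past it at 24 to 439, with 36 without replicate 1 and 24 without replicate 3 or any control. Trend and robust moderation gave 2 of the 30, adding Acacb (adjusted p = 0.0210). Leaving out the rows or the values with extra digits gave 0 of 29 genes and 0 genes in all, with smallest adjusted p of 0.0732 and 0.0734 and 1265 and 1278 genes at an unadjusted p under 0.05. The calls lost included Fabp2, whose values carry no extra digits. Without both liver-rich arrays 0 of the 30 and 6 of all genes passed, from fewer samples, with Srebf1 at an adjusted p of 0.136. With the replicate number as a block 0 of the 30 and 0 genes in all passed in limma, with 12 and 1337 at an unadjusted p under 0.05, and Srebf1 had an adjusted p of 0.138. Deviations of same-numbered arrays from their group means had correlations of -0.12, -0.095 and 0.078 across genes, and differently numbered arrays -0.223 to 0.285. These cannot show whether arrays were paired, since deviations in the chromium restriction group include the split between the liver-rich arrays and replicate 2. The labels state no pairing, and the numbers were not taken to pair arrays. Signal over background is not given, so depth cannot be judged for dim genes such as Elovl7 and Scd4.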
